A study of Arabidopsis thaliana with 12 samples.

Results

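Anthocyanin genes were followed through leaf ageing in 10 Arabidopsis thaliana loci: the regulators PAP1 (AT1G56650, also MYB75) and MYB90 (AT1G66390), the early enzymes CHS (AT5G13930), CHI (AT3G55120), F3H (AT3G51240) and F3'H (AT5G07990), the late enzymes DFR (AT5G42800), LDOX (AT4G22880) and UF3GT (AT5G54060), and the transport gene GSTF12 (AT5G17220). They were chosen by locus and were found among the 21266 loci of the authors' deposited table, and all 10 are among the 19152 genes that could be tested on the arrays. The samples were the third and the fourth leaves of soil-grown plants, with 3 biological samples in each of 4 groups: gvs1-1 at DAE28, Col at DAE28, gvs1-1 at DAE14 and Col at DAE14. DAE14 and DAE28 are the stages as labelled, which the labels do not spell out, and each sample was hybridised to its own array. Col is the ecotype set against the line gvs1-1, whose locus and mutation the labels do not name. All 4 groups shared a cycle of 16 h light and 8 h dark and a harvest 5 h into the light period. The labels give 23 and 37 days on soil for every sample and do not say which time goes with which stage.

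Anthocyanins are red to purple flavonoid pigments stored in the vacuole. In leaves they appear in young organs, under strong light, cold, sugar excess or nutrient shortage, and often late in the life of the leaf. The early enzymes CHS, CHI, F3H and F3'H turn products of the general phenylpropanoid pathway into dihydroflavonols, which also feed the flavonols. DFR and LDOX carry them on to coloured anthocyanidins, and glycosyltransferases and acyltransferases decorate these. In Arabidopsis the MYB factors PAP1 and MYB90 act in a complex with a bHLH protein such as TT8 and the WD40 protein TTG1, and this complex acts mainly on the late genes.

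Signals are given as a percentage of the array's 75th percentile of processed signal, so 100% is a spot at that percentile; this relative signal compares arrays for a gene and not genes with each other. Differences are log2 values ± SE from limma over all 12 arrays, and passing means a p under 0.05 after Benjamini-Hochberg adjustment over all genes tested. The 5 genes PAP1, CHS, CHI, F3H and F3'H were well above background on all 12 arrays. MYB90 passed the filter on dim probes only through Col at DAE28, and DFR, LDOX and UF3GT only through the DAE28 groups. GSTF12 passed through every group but Col at DAE14. These last 5 genes had to differ between some groups to be tested at all, so counts over the 10 genes are descriptions.

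The stages differed as labelled. SAG12, a cysteine protease gene used as a senescence marker, gave 95.3, 34.0 and 1.65% in gvs1-1 leaves and 11206, 9754 and 9075% in Col leaves at DAE28, and was not well above background on any DAE14 array. NAP, a NAC factor of leaf senescence, NYE1, which starts chlorophyll breakdown, and RBCS1A, a small subunit of Rubisco, also changed with age in both genotypes (limma, adjusted p at most 0.0016 over these 4 genes and both genotypes). The arrays lay on 3 slides, scanned on 2 days. The first slide held the 3 Col arrays of DAE14 and replicate 1 of Col at DAE28, the second held replicates 2 and 3 of Col at DAE28 and replicates 1 and 2 of gvs1-1 at DAE14, and the third held replicate 3 of gvs1-1 at DAE14 and the 3 gvs1-1 arrays of DAE28. The second slide was scanned on another day than the first and the third. No slide held both genotypes of the same stage, so genotype and slide cannot be told apart within a stage. Of the 4 flower and meristem markers, AP3, WUS and STM were well above background on no array. The other, AG, could be tested. It gave 1.22 to 2.13% in gvs1-1 and 1.58 to 1.92% in Col at DAE28. At DAE14 it gave 1.96 to 4.45% in gvs1-1 and 2.43 to 3.37% in Col, and it passed as lower with age in gvs1-1. None of the 3 seed markers was bright enough to be tested.

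The Col leaves of DAE28 stood far apart from one another in the anthocyanin genes. The mean over the 10 genes, on the log2 scale relative to the mean of Col at DAE14, was 2.51, 5.04 and 6.48 in replicates 1, 2 and 3 of Col at DAE28, and 0.95, 3.09 and 0.96 in those of gvs1-1 at DAE28. It was 0.23, 0.01 and 0.61 in gvs1-1 at DAE14 and lay between -0.10 and 0.07 in Col at DAE14. For 5 of the 10 genes no Col array of DAE14 was well above background, so these sizes depend on the background. With normexp background correction the DAE28 means were 0.90, 3.09 and 4.60 in Col and -0.16, 1.43 and -0.07 in gvs1-1. From the authors' deposited table they were 1.14, 3.18 and 4.59 in Col and 0.21, 1.52 and 0.17 in gvs1-1. Quantile normalization and median centring stayed near the first values. Replicate 1 was the lowest and replicate 3 the highest of the Col arrays at DAE28 for 9 of the 10 genes, an order shown by 22.0% of all genes tested. Within gvs1-1 at DAE28, replicate 2 was the highest for 8 of the 10 genes, as it was for 29.7% of all genes. The median SD of log2 signal over the 10 genes was 1.80 in gvs1-1 and 1.99 in Col at DAE28, while the medians over all genes were 0.15 and 0.22. For 8 of the 10 genes the SD in Col at DAE28 lay above 0.90, the 95th percentile of all genes.

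The senescence markers did not follow the order of the anthocyanin genes within the DAE28 groups. SAG12 in Col at DAE28 was highest in replicate 1, and NYE1 and NAP in these 3 samples lay between 1867 and 2220% and between 3942 and 4288%. In gvs1-1 at DAE28 SAG12 was also highest in replicate 1, not in replicate 2. The summed relative signal of 6 epidermis and trichome markers did follow that order, and the largest part of this sum was 1 gene, CER6, with 1305, 2205 and 1568% in gvs1-1 and 852, 1320.5 and 1680% in Col at DAE28. The sum was 1939, 2927 and 2315% in replicates 1, 2 and 3 of gvs1-1 at DAE28 and 1217, 1734 and 2201% in those of Col at DAE28, against 4903 to 5074% in gvs1-1 and 4125 to 5663% in Col at DAE14. Taken singly, 2 of the 6 markers were highest in replicate 2 of gvs1-1, near the 29.7% of all genes. In Col at DAE28 4 of the 6 had replicate 1 lowest and replicate 3 highest, against 22.0% of all genes. All 6 could be tested, and 5 of 6 were lower at DAE28 in gvs1-1 and 6 of 6 in Col, against 30.0% and 36.3% of all genes. The summed signal of 4 vascular markers, 1013, 1099 and 1052% in gvs1-1 and 851, 983 and 984% in Col at DAE28, had the same order over a narrower range, with 3 of 4 markers highest in replicate 2 of gvs1-1 and 1 of 4 lowest in replicate 1 and highest in replicate 3 of Col. The sum of 4 guard cell markers had that order only in Col, with 163, 153 and 128% in gvs1-1 and 222, 233 and 313% in Col at DAE28. Singly, 1 of these 4 was highest in replicate 2 of gvs1-1 and 3 of 4 had the Col order. The mesophyll and root sums had the order in neither genotype. Fewer cells of a type and less RNA per cell cannot be told apart in whole leaves. The part of epidermis, guard cells, vascular tissue, slide and scan day in the spread of the anthocyanin genes was not tested.

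**Figure D1:**
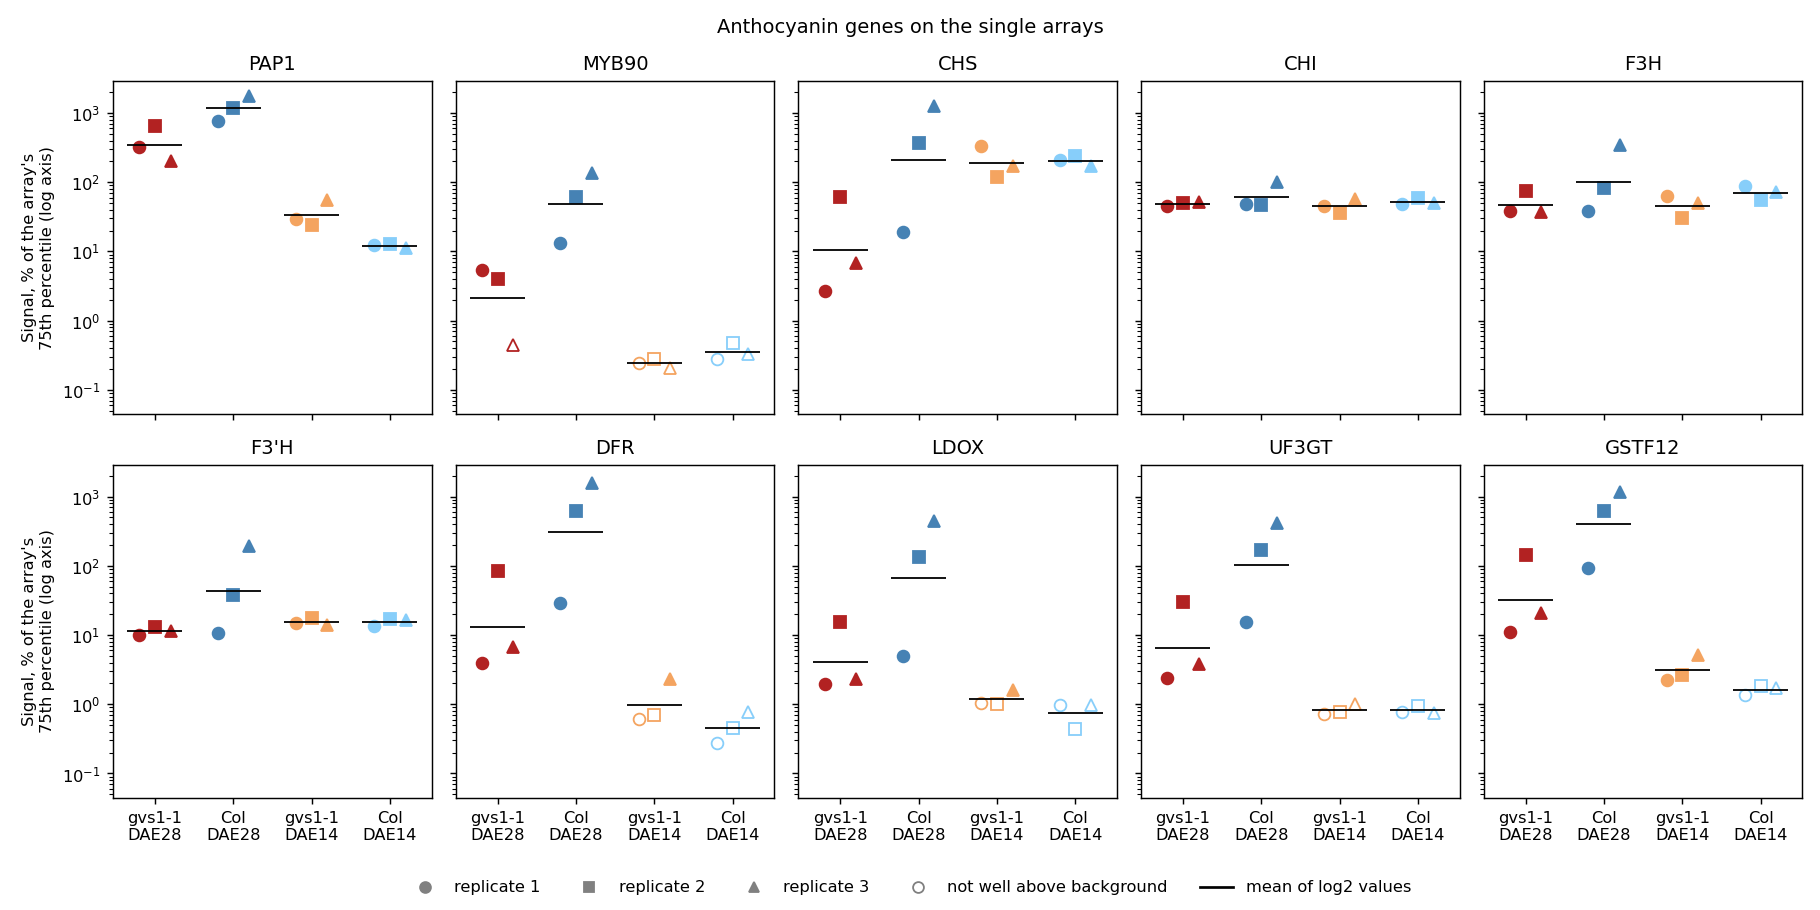
Relative signal of the 10 anthocyanin genes on each of the 12 arrays, as a percentage of the array's 75th percentile on a log axis; symbols are replicates, open symbols are spots not well above background and bars are means of log2 values (n = 3 arrays per group). The late genes DFR, LDOX and UF3GT sit highest in Col at DAE28, where they also spread most, while CHI lies between 36.3 and 101% on every array.

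Both regulators rose with age in both genotypes, and the rise of PAP1 was larger in Col. PAP1 gave 319, 642 and 202% in gvs1-1 at DAE28, against 29.7, 24.1 and 55.0% in gvs1-1 at DAE14. In Col it gave 762, 1174 and 1750% at DAE28, against 12.4, 12.7 and 11.2% at DAE14. No array of a DAE28 group overlapped with one of its own DAE14 group, and every Col array of DAE28 lay above every gvs1-1 array of DAE28. The rise was 3.34 ± 0.44 in gvs1-1 (10.1-fold, limma adjusted p = 0.00012) and 6.59 ± 0.44 in Col (96.1-fold, limma adjusted p = 6.5e-07; n = 3 arrays per group). The difference between these changes, the interaction, was -3.24 ± 0.63 and passed (limma adjusted p = 0.0096).

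PAP1 was lower in gvs1-1 than in Col at DAE28, by -1.75 ± 0.44 (limma adjusted p = 0.014). At DAE14 the order was the other way: all 3 gvs1-1 arrays lay above all 3 Col arrays, with a difference of 1.49 ± 0.44 that did not pass (limma adjusted p = 0.17, unadjusted p = 0.0071). The DAE28 difference was lost without replicate 3 of gvs1-1 at DAE28 (-1.36). With slide as a fixed block the DAE14 difference was 0.24 and the interaction -3.33 (limma adjusted p = 0.93 and 0.047). On the arrays of the first scan day alone the PAP1 interaction was -3.33 and did not pass (limma adjusted p = 0.066); Col at DAE28 and gvs1-1 at DAE14 had 1 array each there and were assumed to vary like the other groups.

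MYB90, the sister factor of PAP1, was not well above background on any DAE14 array of either genotype. At DAE28 it gave 5.43, 3.96 and 0.446% in gvs1-1, the last of these not well above background, and 13.4, 60.6 and 137% in Col. It rose at least 1.98-fold with age in gvs1-1 and at least 30.2-fold in Col (limma adjusted p = 0.017 and 7.5e-05). The gvs1-1 arrays of DAE28 all lay below the Col arrays, by -4.50 ± 0.96 (limma adjusted p = 0.0062), and the interaction of -3.97 ± 1.36 did not pass (limma adjusted p = 0.067). In gvs1-1 the age call was lost without replicate 1 or replicate 2 of DAE28, with fitted changes over all single-array omissions from 2.44 to 4.25. Over all 26 alternatives the fitted MYB90 change in gvs1-1 ran from 0.23 to 4.25, and 7 of them lost the call. PAP1, MYB90, MYB113 and MYB114 are close paralogs, and how far their probes share signal is unknown.

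The early enzymes, which also serve the flavonols, did not move as one. CHS, chalcone synthase, makes the first flavonoid. Its signal was 2.69, 60.3 and 6.89% in gvs1-1 at DAE28, against 333, 119 and 174% in gvs1-1 at DAE14. In Col it was 19.0, 365 and 1281% at DAE28, against 209, 243 and 172% at DAE14. The 2 gvs1-1 groups did not overlap, whereas replicate 1 of Col at DAE28 lay below and replicates 2 and 3 above all Col arrays of DAE14. CHS fell by 4.20 ± 1.44 with age in gvs1-1 (limma adjusted p = 0.027), and its fitted change in Col was 0.01 ± 1.44 with a 95% interval from -3.19 to 3.21. At DAE28 it was lower in gvs1-1 by -4.32 ± 1.44 (limma adjusted p = 0.042), with replicate 2 of gvs1-1 above replicate 1 of Col. The interaction of -4.21 ± 2.04 did not pass (limma adjusted p = 0.17). The fall in gvs1-1 was lost without replicate 1 or replicate 3 of either gvs1-1 group, with fitted changes from -5.46 to -3.22 over all single-array omissions. The fitted Col value moved with the arrays entered. On the first slide, where replicate 1 was the only DAE28 array and was set against the 3 DAE14 arrays, it was -3.43. Without that array the fitted change was 1.73 (limma adjusted p = 0.19).

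CHI, chalcone isomerase, closes the ring after CHS. It lay between 36.3 and 101% on all 12 arrays and passed in no comparison; the 95% intervals of its age change ran from -0.51 to 0.72 in gvs1-1 and from -0.39 to 0.83 in Col. F3H, flavanone 3-hydroxylase, gave 38.3, 75.6 and 37.5% in gvs1-1 at DAE28 and 37.8, 82.4 and 342% in Col at DAE28, against 30.7 to 63.7% in gvs1-1 and 54.7 to 88.1% in Col at DAE14. F3'H, which adds a further hydroxyl group to the B ring, gave 10.1, 13.2 and 11.3% in gvs1-1 at DAE28 and 10.9, 37.9 and 191% in Col at DAE28. At DAE14 it lay between 14.1 and 17.7% in gvs1-1 and between 13.5 and 17.0% in Col. For F3H and F3'H 1 or 2 Col leaf samples of DAE28 stood high and replicate 1 did not, and neither gene passed in any comparison. Their largest difference between 2 groups was that of F3'H between the genotypes at DAE28, -1.90 ± 0.77 (limma adjusted p = 0.082). Without replicate 1 of Col at DAE28 both F3H and F3'H passed there, with -1.82 and -2.89, and F3'H also passed with age in Col, with 2.46, and in the interaction, with -2.89. The second probe of F3H and the 2 further probes of F3'H passed in no comparison either.

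The late enzymes rose from near background in Col. DFR, dihydroflavonol reductase, which opens the anthocyanin branch, gave 3.97, 85.1 and 6.66% in gvs1-1 at DAE28, against 0.611, 0.693 and 2.30% at DAE14. In Col it gave 29.2, 624 and 1579% at DAE28, and was not well above background on any DAE14 array. Each DAE28 group lay above its DAE14 group, but replicate 2 of gvs1-1 at DAE28 lay above replicate 1 of Col at DAE28. DFR rose by 3.73 ± 1.47 in gvs1-1 (limma adjusted p = 0.049) and at least 192-fold in Col (limma adjusted p = 0.00021). That bound holds for the main processing, and over the alternatives the fitted Col change ran from 4.66 to 11.09 on the log2 scale. At DAE28 it was lower in gvs1-1 by -4.55 ± 1.47 (limma adjusted p = 0.038), and the interaction of -5.67 ± 2.08 did not pass (limma adjusted p = 0.082).

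LDOX, also called anthocyanidin synthase, makes the first coloured compound. It gave 1.93, 15.6 and 2.30% in gvs1-1 at DAE28, against 1.03, 1.02 and 1.59% at DAE14, where only replicate 3 was well above background. In Col it gave 4.95, 132 and 437% at DAE28 and was not well above background at DAE14. The age groups of gvs1-1 did not overlap, yet their difference of 1.79 ± 1.39 did not pass (limma adjusted p = 0.28, 95% interval from -1.30 to 4.89). In Col LDOX rose at least 41.4-fold (limma adjusted p = 0.0018). The genotypes differed at DAE28 by -4.01 ± 1.39 (limma adjusted p = 0.049), with replicate 2 of gvs1-1 above replicate 1 of Col. This LDOX call was lost in 18 of 25 alternatives, 10 of them among the 12 fits that left out 1 array; the values over all 25 ran from -6.50 to -0.27. The genotype calls at DAE28 of CHS and DFR were lost in 17 of 26 and in 14 of 25 alternatives, and passed in 2 and 4 of the 12 fits without 1 array.

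UF3GT, also called UGT79B1, adds xylose to the sugar already on the anthocyanin. Its signal was 2.37, 30.4 and 3.87% in gvs1-1 at DAE28 and 15.5, 171 and 421% in Col at DAE28, and no DAE14 array was well above background. It rose at least 5.91-fold in gvs1-1 and at least 65.1-fold in Col (limma adjusted p = 0.045 and 0.0003). At DAE28 it was lower in gvs1-1 by -3.99 ± 1.15 (limma adjusted p = 0.024), while the interaction of -4.02 ± 1.63 did not pass (limma adjusted p = 0.11). In gvs1-1 the DFR and UF3GT calls lay just under the threshold: each passed in only 3 of the 12 fits that left out 1 array. Over all 26 alternatives the fitted gvs1-1 changes ran from 1.16 to 4.82 for DFR and from 0.62 to 4.21 for UF3GT. The calls were lost in 16 and 15 of these.

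GSTF12, the glutathione transferase TT19 needed to bring anthocyanin into the vacuole, gave 11.0, 143 and 21.1% in gvs1-1 at DAE28, against 2.21, 2.62 and 5.22% at DAE14. In Col it gave 94.1, 618 and 1179% at DAE28, with no DAE14 array well above background. It rose by 3.36 ± 1.02 in gvs1-1 (limma adjusted p = 0.015) and, for the probe with the highest mean, at least 240-fold in Col (limma adjusted p = 4.8e-05). At DAE28 GSTF12 was lower in gvs1-1 by -3.67 ± 1.02 (limma adjusted p = 0.020), and its interaction of -4.62 ± 1.44 passed narrowly (limma adjusted p = 0.049). Only 2 of the 12 fits without 1 array kept that interaction past the threshold. The interactions of MYB90, DFR, LDOX, UF3GT and GSTF12 are fitted against Col spots of DAE14 not well above background, so their sizes depend on the background. The second probe of GSTF12, above background on all 12 arrays, gave smaller values: 1.21 ± 0.58 with age in gvs1-1 (limma adjusted p = 0.097), 3.12 ± 0.58 with age in Col and -1.91 ± 0.83 for the interaction (limma adjusted p = 0.13).

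**Figure D2:**
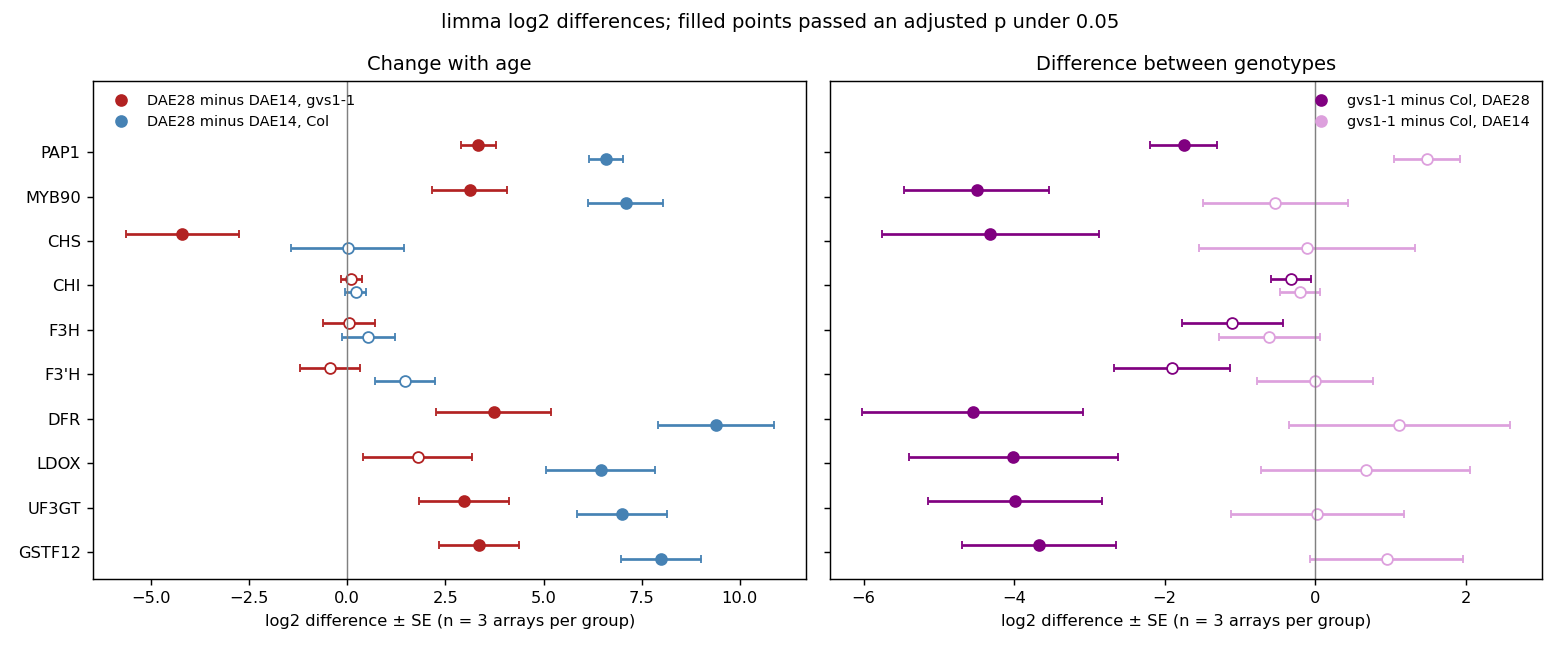
log2 differences ± SE of the 10 anthocyanin genes with age (left, DAE28 minus DAE14, gvs1-1 above Col within each gene) and between genotypes (right, gvs1-1 minus Col, DAE28 above DAE14), from limma with n = 3 arrays per group; filled points passed an adjusted p under 0.05. The Col age points of MYB90, DFR, LDOX, UF3GT and GSTF12 and the gvs1-1 age points of MYB90 and UF3GT are fitted against DAE14 spots not well above background and are no exact sizes. The DAE14 genotype points of MYB90, DFR, LDOX, UF3GT and GSTF12 also depend on the background. With age in Col CHI stays near 0, while the CHS value of 0.01 averages DAE28 arrays that lay below and above those of DAE14. The genotype values of DAE28 are all below 0, from -4.55 to -0.32.

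Counted over the set, 5 of the 10 genes rose and 1, CHS, fell with age in gvs1-1, where 31.4% of all genes rose and 30.0% fell. In Col 6 of the 10 rose and 0 fell, against 35.7% and 36.3% of all genes. The median difference over the 10 genes was 2.39 in gvs1-1 and 6.53 in Col, and over all genes 0.06 and 0.01. With genes that have only a bound set to it, 2 in gvs1-1 and 5 in Col, the medians over the 10 genes were 1.39 and 5.14. The arrays of the 2 stages separated fully in gvs1-1 for 6 of the 10 genes with DAE28 above and for 2, CHS and F3'H, with DAE28 below, as for 35.6% and 33.1% of all genes. In Col they separated for 6 with DAE28 above, as for 37.8% of all genes. The Col count kept to at least 5 of 10 in every alternative that could test all 10 genes. The gvs1-1 count was 3 without replicate 1 or replicate 3 of gvs1-1 at DAE14 or without replicate 3 of gvs1-1 at DAE28, and 2 without replicate 2 of gvs1-1 at DAE28. Of all genes from 10398 to 12263 passed with age in gvs1-1 without 1 array, against 11750 in the main fit. With slide as a fixed block 1 gene passed in gvs1-1, PAP1 with 2.65, and on the third slide alone 0 passed. That slide holds 1 gvs1-1 array of DAE14, assumed to vary like the DAE28 arrays, and PAP1 had 2.65 there.

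The genotype comparison asked which of these genes differed between leaves of gvs1-1 and Col of the same labelled stage. At DAE28 3 of the 4 stage markers were lower and 1 was higher in gvs1-1. A difference of genotype therefore cannot be told apart there from one of how far the leaves had aged. At DAE28 0 of the 10 genes were higher and 7 were lower in gvs1-1, where 15.1% of all genes were lower: PAP1, MYB90, CHS, DFR, LDOX, UF3GT and GSTF12. The median difference was -3.83 over the 10 genes and 0.04 over all genes. The arrays of the 2 genotypes separated fully in 2 genes, PAP1 and MYB90, and in 21.4% of all genes with gvs1-1 below. At DAE14 0 of the 10 genes passed, as 0.313% of all genes did, with differences from -0.61 to 1.49; at an unadjusted p under 0.05 there were 1 of the 10 genes and 3194 of all genes. MYB90 and UF3GT were well above background on no DAE14 array of either genotype, and DFR, LDOX and GSTF12 on no Col array of DAE14. In gvs1-1 at DAE14 DFR and LDOX were well above background on 1 array each. The DAE14 differences of these genes depend on the background and could hardly show a genotype difference. Under array weights 1 gene passed at DAE14, PAP1. For the interaction 2 of the 10 passed and were lower, PAP1 and GSTF12, against 8.74% of all genes.

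The main fit shares 1 estimate of the spread over the 4 groups. The median SD over the 10 genes was 1.80 in gvs1-1 and 1.99 in Col at DAE28, against 0.45 and 0.24 at DAE14. For genes with a wider spread at DAE28, the SE of a DAE28 difference is therefore smaller than that spread gives. The DAE28 count rested on this shared spread and on few arrays. It was 9 without replicate 1 of Col at DAE28, 2 without replicate 2 or replicate 3 of Col at DAE28 or replicate 1 of gvs1-1 at DAE28, and 1 without replicate 3 of gvs1-1 at DAE28. Leaving out any 1 Col array of DAE14 or replicate 2 of gvs1-1 at DAE14 gave 4. Of all 19152 genes from 4811 to 6479 passed at DAE28 without 1 array, against 6337 in the main fit. In a fit of the 2 DAE28 groups alone 1 of the 10 passed, while a slide block left 3 and a scan day block 2. Of all genes 4330, 1763 and 5281 passed in these fits. The slide block reaches the genotype difference only through arrays of the other stage, as no slide held both genotypes of DAE28. On the first scan day alone, where Col at DAE28 is replicate 1 alone and is assumed to vary like the other groups, 0 passed, while 8.45% of all genes were lower. There the differences were -1.14 for PAP1, -2.65 for MYB90, -0.87 for CHS, -1.15 for DFR, -0.27 for LDOX, -1.25 for UF3GT and -1.55 for GSTF12, and 0.03 for CHI, 0.34 for F3H and 0.08 for F3'H. The interaction count was 8 without replicate 1 of Col at DAE28, 4 without replicate 2 of gvs1-1 at DAE28, 1 without any of the other arrays and 7 under array weights. Of all genes from 1925 to 4919 passed in the interaction without 1 array and 7624 under array weights, against 3572 in the main fit.

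In the authors' deposited table of log2 values the Col arrays of DAE28 had the same order. PAP1 was 11.98, 12.98 and 11.12 in gvs1-1 and 13.21, 13.80 and 14.59 in Col at DAE28 in the authors' deposited table. DFR there was 6.01, 8.26 and 6.34 in gvs1-1 and 7.49, 11.01 and 12.35 in Col at DAE28, also from the authors' deposited table. How that table was scaled between arrays is unknown.

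**Figure D3:**
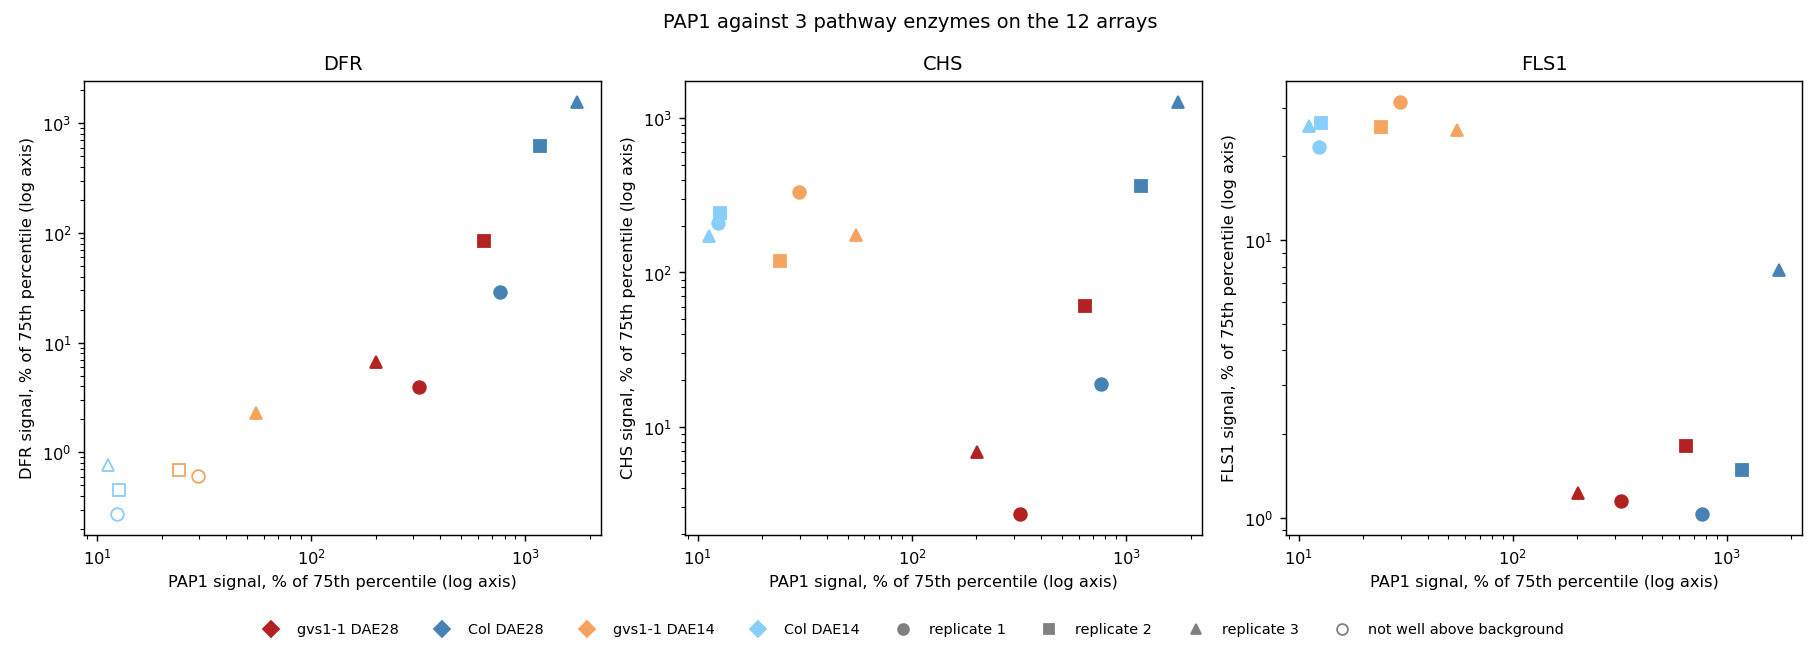
Relative signal of DFR, CHS and FLS1 (vertical, log axes) against that of PAP1 (horizontal, log axis) on the 12 arrays, as percentages of each array's 75th percentile; colours are groups, symbols are replicates and open symbols are enzyme spots not well above background. DFR is highest on the 2 arrays with the highest PAP1, CHS is high at DAE14 where PAP1 is low, and FLS1 is below 8% on every DAE28 array.

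Set side by side on the single arrays, PAP1 and the late genes were high in the same samples, and CHS was high in others as well. The highest PAP1 value, 1750% in replicate 3 of Col at DAE28, came with the highest DFR, LDOX, UF3GT and GSTF12 values. Replicate 1 of Col at DAE28 had a PAP1 signal of 762%, above the 642% of replicate 2 of gvs1-1 at DAE28, but its DFR signal was 29.2% against 85.1% there. CHS was 19.0% in that Col sample and 60.3% in that gvs1-1 sample. At DAE14 CHS lay between 119 and 333% while PAP1 stayed at or below 55.0%.

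Other genes of the pathway were read from 7 lists with 48 loci. Among the complex partners and sister MYBs, 3 of 6 could be tested; GL3, EGL3 and MYB113 could not. In Col MYB114 rose and TTG1 fell with age. TTG1, the WD40 partner, gave 590 to 824% in gvs1-1 and 507 to 701% in Col at DAE28, against 744 to 905% in gvs1-1 and 820 to 990% in Col at DAE14, a change of -0.59 ± 0.16 in Col (limma adjusted p = 0.0079). MYB114 was dim, with no DAE14 array well above background, and at least 1.06-fold higher in Col at DAE28 (limma adjusted p = 0.00037). MYB114 and TT8 passed the filter on dim probes only through Col at DAE28, so their rises in Col are descriptions. TT8, the bHLH partner, was singled out after its values were seen. It gave 0.627, 3.41 and 1.52% in gvs1-1 and 2.19, 11.6 and 29.6% in Col at DAE28, had no DAE14 array well above background, and rose at least 5.71-fold in Col (limma adjusted p = 0.0099). It followed the order of the anthocyanin genes over the 3 Col arrays of DAE28.

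Repressors of the pathway moved in both directions, as all genes did. With age 1 rose and 4 fell of 7 in Col, where 35.7% of all genes rose and 36.3% fell. In gvs1-1 1 rose and 2 fell, against 31.4% and 30.0% of all genes. LBD38, a nitrogen-responsive repressor of PAP1 and MYB90, fell by 1.45 ± 0.32 in Col (limma adjusted p = 0.0021), with 43.0, 44.5 and 104% at DAE28 against 154 to 171% at DAE14. CPC, a single-repeat MYB that competes for the bHLH partner, rose by 0.68 ± 0.18 in Col (limma adjusted p = 0.0057). Between the genotypes at DAE28 1 of the 7 repressors was higher in gvs1-1 and 0 were lower. Of all 19152 genes 6337 differed there in either direction.

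Light regulators had 2 of 8 genes higher and 5 lower with age in Col, and 2 higher and 3 lower in gvs1-1. Of all genes 35.7% were higher and 36.3% lower in Col, and 31.4% and 30.0% in gvs1-1. HY5, a bZIP factor that promotes anthocyanin genes in light, gave 55.8, 55.8 and 42.7% in gvs1-1 at DAE28 and 121, 147 and 151% in Col at DAE28. At DAE14 HY5 lay between 27.0 and 36.7% in gvs1-1 and between 28.4 and 40.3% in Col. It rose by 0.74 ± 0.18 in gvs1-1 and 2.09 ± 0.18 in Col, and the interaction of -1.35 ± 0.25 passed (limma adjusted p = 0.0081). Its Col samples of DAE28 were close to each other, unlike those of the anthocyanin genes. BBX25, which acts against HY5, gave 288, 396 and 325% in gvs1-1 at DAE28 and 204, 179 and 203% in Col at DAE28. It fell by 0.57 ± 0.14 in gvs1-1 and 1.79 ± 0.14 in Col, with an interaction of 1.22 ± 0.20 (limma adjusted p = 0.0049).

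The general phenylpropanoid enzymes, which make the precursors, mostly fell. Of 8 genes, 0 rose and 6 fell with age in gvs1-1, and 0 rose and 5 fell in Col. Among all genes 31.4% rose and 30.0% fell in gvs1-1, and 35.7% and 36.3% in Col. PAL2, a phenylalanine ammonia-lyase, gave 140 to 195% in gvs1-1 and 78.7, 127 and 392% in Col at DAE28, against 856 to 1072% in gvs1-1 and 945 to 1058% in Col at DAE14. It fell by 2.67 ± 0.45 in Col (limma adjusted p = 0.00038). PAL3 fell by 0.83 ± 0.13 in gvs1-1 and 1.70 ± 0.13 in Col, and its interaction of 0.87 ± 0.19 passed (limma adjusted p = 0.014). 4CL3, the ligase isoform tied to flavonoids, was singled out after its values were seen. It passed the filter on dim probes only through the DAE14 groups. It was not well above background in gvs1-1 at DAE28 and gave 0.207, 3.88 and 22.2% in Col at DAE28, the first of these not well above background, against 5.61 to 7.53% in gvs1-1 and 7.14 to 7.77% in Col at DAE14.

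No tested gene of the flavonol branch rose with age. Of 4 genes tested, 0 rose and 3 fell with age in gvs1-1, where 31.4% of all genes rose and 30.0% fell. In Col 0 rose and 2 fell, against 35.7% and 36.3% of all genes. The flavonol regulators MYB11, MYB12 and MYB111 could not be tested. FLS1, flavonol synthase, uses the same dihydroflavonols as DFR. It gave 1.15, 1.81 and 1.22% in gvs1-1 and 1.03, 1.48 and 7.77% in Col at DAE28, against 24.9 to 31.5% in gvs1-1 and 21.7 to 26.3% in Col at DAE14. FLS1 fell by 4.31 ± 0.59 in gvs1-1 and 3.43 ± 0.59 in Col (limma adjusted p = 0.00015 and 0.00042), and its interaction of -0.89 ± 0.84 did not pass. UGT78D1, which adds rhamnose to flavonols, fell by 1.22 ± 0.22 in Col (limma adjusted p = 0.00057). CHIL, a partner protein that raises the yield of chalcone synthase, was singled out after its values were seen and had the pattern of CHS. It passed the filter on dim probes only through the DAE14 groups. It gave 0.131, 1.25 and 0.205% in gvs1-1 at DAE28 and 0.389, 13.9 and 112% in Col at DAE28, against 7.30 to 13.1% in gvs1-1 and 8.42 to 10.7% in Col at DAE14.

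Most of the decorating enzymes rose with age in Col, as the late genes did. Among them 5MAT passed the filter on dim probes only through Col at DAE28, and 3AT1 and 3AT2 only through the DAE28 groups. These genes entered through DAE28 leaves, so counts over the list are descriptions. Of 7 genes, 5 rose and 0 fell with age in Col, where 35.7% of all genes rose and 36.3% fell. In gvs1-1 1 rose and 1 fell, against 31.4% and 30.0% of all genes. At DAE28 5 of the 7 were lower in gvs1-1 and 0 were higher, while 15.1% of all genes were lower. The median difference was -3.56 over the list and 0.04 over all genes. 3AT2, a coumaroyltransferase of anthocyanins, gave 1.79, 13.0 and 1.72% in gvs1-1 and 13.0, 102 and 243% in Col at DAE28, and was not well above background at DAE14. It rose at least 3.18-fold in gvs1-1 and at least 43.1-fold in Col (limma adjusted p = 0.011 and 7.4e-05). BGLU10, an anthocyanin glucosyltransferase, changed less: it gave 232 to 307% in gvs1-1 and 371 to 550.5% in Col at DAE28, rose by 1.24 ± 0.18 in Col and had an interaction of -0.92 ± 0.25 (limma adjusted p = 0.031). None of the 5 seed coat genes, BAN, TT12, TT2, AHA10 and TT10, was bright enough to be tested.

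**Figure D4:**
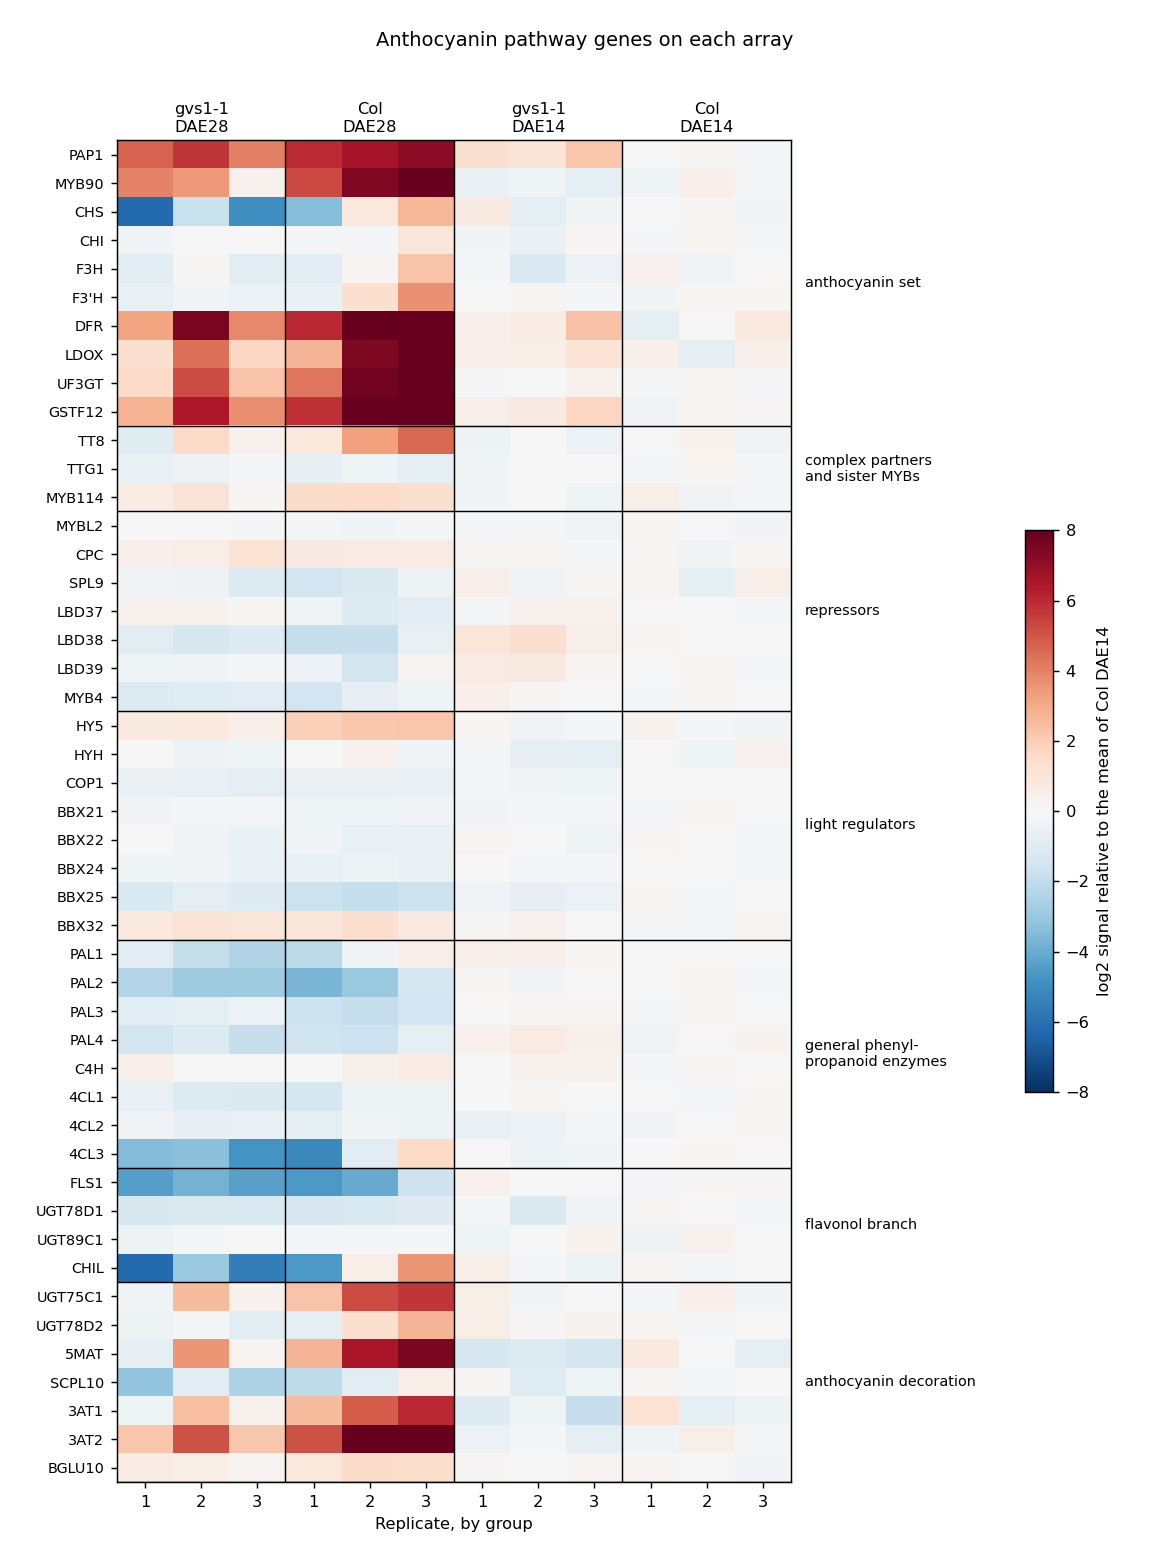
log2 signal of the 10 anthocyanin genes and of the tested genes of 6 pathway lists on each of the 12 arrays, relative to the mean of Col at DAE14, with columns as replicates within groups; the colour scale ends at -8 and 8. The late genes and several decorating genes are red at DAE28, most so in replicates 2 and 3 of Col and in replicate 2 of gvs1-1, while FLS1 is blue on all 6 DAE28 arrays.

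The genes most like the set in pattern were found by the root mean square difference, over the 12 arrays, between a gene's centred log2 values and the mean of the 10 anthocyanin genes. Among 8486 genes with a symbol outside the set, the 8 closest were GH3.17 with 0.61, NEK4 with 0.70, DGR1 with 0.71, TPPD with 0.72, PAO1 with 0.76, TMAC2 and LAC5 with 0.77 each and NUDT24 with 0.78. The 10 genes themselves lay between 0.93 for LDOX and 2.71 for CHS from their own mean. GH3.17, an enzyme that joins auxin to amino acids, had log2 signals relative to the 75th percentile of -3.57, -2.27 and -2.72 in gvs1-1 and -1.25, 0.81 and 1.87 in Col at DAE28, with replicate 1 lowest and replicate 3 highest in Col. TPPD, a trehalose phosphate phosphatase, had -4.18, -3.92 and -5.16 in gvs1-1 and -2.32, -0.93 and 0.33 in Col at DAE28 on the same scale. The arrays these values share carry the same slide and scan day, so the likeness is a description.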

How the data were processed

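Per the labels' protocols, total RNA from the 12 leaf samples was amplified and given a Cy3 label for one-colour Agilent arrays. The deposited scanner files hold spot intensities on a linear scale, extracted with Agilent Feature Extraction (11.5.1.1 per the file headers; the submitters' processing notes say 11.5). Their processed signal is the authors' background-corrected intensity. The authors also deposited log2 values per locus in 1 table, used only as an alternative.

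Control spots and 166 probes with an outlier mark were left out, spots of a probe were averaged, and 0 spots were saturated. RefSeq accessions matched 34348 of 43603 probes to 25410 loci of the TAIR10.1 table; the files name TAIR10, so no coordinates are printed. The log2 processed signal was taken relative to each array's 75th percentile, which ran from 704 to 1577, and from 63.8% to 72.5% of an array's spots cleared background. The number of arrays limits the precision. Probes (26801) entered if some group had all 3 arrays well above background, and the probe with the highest mean stood for its gene.

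limma 3.58.1 in R 4.3.3 (lmFit, eBayes) was fitted over all 12 arrays with 4 group means and 5 two-sided contrasts; it was tested on simulated data. Where no array of a group measured a gene well above background, the fold change is printed as a bound ("at least N-fold"): the bright group's mean over a floor, which on each dim array is the gene's signal or, if higher, the lowest signal of any probe well above background. Fitted log2 values against such groups, interactions included, depend on the background. A bound holds for the main processing and the probe that stood for the gene. Some alternatives fell below the bounds of the anthocyanin genes. Their lowest log2 changes with age in Col were 3.02 for MYB90, 4.66 for DFR, 2.73 for LDOX, 3.66 for UF3GT and 3.12 for GSTF12. In gvs1-1 they were 0.23 for MYB90 and 0.62 for UF3GT.

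All 10 genes are named. Of the pathway lists, those with the 2 smallest adjusted p with age in Col and in the interaction are named, and further the 8 genes most similar in pattern and 4 stage markers; other names are marked where they stand. The genes, lists and alternatives were chosen with earlier results of these data known. The files hold no mean signal, so normexp (offset 50), planned on the mean, used the median signal. Other alternatives were the normalization, the filter, the probe rule, slide, scan day, replicate number, array weights, the groups compared and leaving out each array. The labels call the samples independent biological samples. The p-values of the main fit rest on the spread between them within groups, pooled over the 4 groups.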

Additional observations from a re-analysis of the deposited data

Results flagged for a closer look

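The age change differed between the genotypes by the interaction test for 6 of the anthocyanin and pathway genes named above (limma, adjusted p under 0.05); the 4 stage markers passed as well. PAP1 had an interaction of -3.24, a larger rise in Col than in gvs1-1. GSTF12 had -4.62, fitted against Col spots of DAE14 not well above background; its call was lost in 20 of 26 alternatives, and its second probe, above background on all 12 arrays, gave -1.91 (limma adjusted p = 0.13). HY5 had -1.35 and BGLU10 -0.92, with all 3 gvs1-1 arrays of DAE28 below all 3 Col arrays for both genes. BBX25 had 1.22 and PAL3 0.87, each with a larger fall in Col. Groups held 3 arrays each, and no outlier test within a group was run.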

How the results depend on the processing

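Counts are genes of the 10 that passed in limma, unless another total is given. With age in gvs1-1 (6 as reported) they were 2 under normexp, 2 in the authors' deposited table, 2 of 6 with only probes above background on all arrays, 1 with slide as a fixed block, 0 on slide 3 alone, 1 on scan day 1 alone and 2 to 6 without 1 array. With age in Col (6) the count was 2 of 6 with only probes above background on all arrays. For genotype at DAE28 (7) the counts were 4 under normexp, 4 without the filter, 3 of 6 with only probes above background on all arrays, 3 and 4 with slide as a fixed and a random block, 0 on scan day 1 alone, 2 with scan day as a block, 1 with only the groups compared and 1 to 9 without 1 array. At DAE14 (0) array weights gave 1. For the interaction (2) the counts were 1 under normexp, without the filter, with only probes above background on all arrays, with the mean over probes and with slide as a fixed or random block, 0 on scan day 1 alone or with scan day as a block, 7 under array weights and 1 to 8 without 1 array. The causes were not tested, save that fewer genes or arrays enter the restricted fits. CHS with age in Col, 0.01 as reported, was -3.43 on slide 1 alone, which holds 1 Col array of DAE28. Of 1300 recomputed values of the 10 genes, 149 lost and 22 gained a call. The value of CHS with age in Col on slide 1 alone took the other sign, and had no call as reported. All other called values kept direction and call, and 51 values without a call moved by more than the spread between replicates. Values without a call changed sign in 71 cases. The range of the mean over the 10 genes in Col at DAE28, 3.97, stayed within its spread under the alternatives that gave it.

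Over all genes, 6951 passed with age in gvs1-1 on slide 3 alone (11750 as reported). At DAE28 3750 passed under normexp, 1763 with slide as a fixed block and 4071 on scan day 1 alone (6337). At DAE14 23 alternatives gave from 2 to 2079 (60), and in the interaction 10 gave from 897 to 7624 (3572). Samples that share a replicate number did not deviate together in every pair in any comparison (correlations from -0.269 to 0.507), so the number does not pair them; with it as a replicate block the counts were 6, 6, 6, 0 and 2, for age in gvs1-1, age in Col, genotype at DAE28, genotype at DAE14 and the interaction. Slide 2 and scan day 2 alone gave no comparison.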
